A study of Rattus norvegicus with 6 samples.

Results

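The nuclear genes for mitochondrial carriers, protein import and the mitochondrial ribosome were followed in RNA of the rat lateral ventricular choroid plexus, the tissue that secretes most of the cerebrospinal fluid. Members were all genes whose name in the deposited comparison begins with Slc25a, Timm, Tomm, Mrpl or Mrps followed by their number, or is one of the related names for mitochondrial DNA, its expression and membrane fusion, which gave 68 of 29479 gene identifiers. They comprised 22 carriers, 10 import genes, 29 ribosome genes and 7 others (*Mfn2*, *Opa1*, *Polg*, *Polg2*, *Tfb1m*, *Tfb2m* and *Mtif2*). Names were given in that comparison only to genes that its authors had called different between the ages on these same libraries. The members were therefore chosen by the age difference itself, so their age differences are given below as a description, without p-values, and family genes that were not called have no name here. The samples were untreated Sprague-Dawley rats at embryonic day 15 (E15) and non-pregnant adults of 6 weeks, with 3 pools of 10 animals at each age. The plexus was taken whole, with its stroma, vessels and blood, and RNA was read as single-end sequences of 100 bases, so that in these bulk samples fewer cells of a type and less RNA per cell cannot be told apart.

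Nearly all mitochondrial proteins are encoded in the nucleus and made in the cytosol. They enter through the outer membrane complex TOM and are sorted by the inner membrane complexes TIM, while small Tim proteins chaperone membrane proteins across the space between. Solute carriers of the Slc25 family, themselves imported in this way, exchange nucleotides, phosphate, acids and cofactors across the inner membrane. The mitochondrial ribosome has proteins made from nuclear genes and translates the few messages of mitochondrial DNA, all of them for the respiratory chain and ATP synthase. Choroid plexus epithelium is rich in mitochondria, which supply its ion pumps. Reads on mitochondrial DNA itself were not counted in these files.

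Some promoters of these genes hold short sequences that the choice of members did not use, and any of the 4 looked for was in 29 of 59 (49.2%). RefSeq promoters (rat assembly GRCr8, 250 bases before to 50 after the annotated start, 300 in all) were matched by symbol for 58 of the 68 members, in 59 promoters. The motif CCGGAAG, the core bound by GABPA and other ETS factors, was found on either strand in 21 of the 59 (35.6%), compared with 10.7% of 21842 promoters of protein-coding genes, 8.75% of all 33469 promoters and 12.5% of the 6118 promoters of genes named in the deposited comparison. It was present in 9 of 25 promoters of ribosome genes, 6 of 19 of carriers, 4 of 9 of import genes and 2 of 6 of the others. The YY1 motif AAGATGGCG was found in 8 member promoters (13.6%, against 2.07% of protein-coding ones), 7 of them of ribosome genes. The NRF1 motif, GCGCA and GCGC with any base between, was in 6 (10.2% against 5.66%) and the ESRRA motif TCAAGGTCA in 1 (1.69% against 0.366%). Of the promoters of genes named in the deposited comparison, 2.70% held the YY1 motif, 7.03% the NRF1 motif and 0.229% the ESRRA motif. A match is a run of letters and not a site shown to be bound. These shares came from members that were called at either age, and no test was made of them.

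The 6 promoters with at least 2 of these motifs in the last 150 bases before the start are shown, 5′ to 3′ on the strand of the gene, to let the repeated ETS cores be seen. The capitals mark the motif matches. In *Timm10* a pair of matches, at 28 and 25 bases before the start, overlaps in a single palindrome. *Timm8b* holds the only ESRRA match among the members and *Tomm20* an NRF1 match beside its ETS core, while the promoter of *Mrpl36* has, near its end, a YY1 match read on the opposite strand.
Timm8b (chr8:59850587-59850736, plus strand): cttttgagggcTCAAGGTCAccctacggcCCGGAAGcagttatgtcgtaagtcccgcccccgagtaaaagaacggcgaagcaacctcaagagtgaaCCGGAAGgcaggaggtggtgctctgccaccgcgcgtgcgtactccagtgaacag
Timm10 (chr3:90314989-90315138, plus strand): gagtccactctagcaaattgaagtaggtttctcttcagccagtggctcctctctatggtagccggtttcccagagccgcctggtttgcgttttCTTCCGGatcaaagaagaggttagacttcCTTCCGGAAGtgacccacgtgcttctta
Timm23 (chr16:7442620-7442769, minus strand): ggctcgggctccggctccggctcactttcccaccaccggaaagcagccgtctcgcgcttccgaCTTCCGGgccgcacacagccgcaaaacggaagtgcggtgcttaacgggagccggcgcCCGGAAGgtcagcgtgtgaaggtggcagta
Tomm20 (chr19:71832421-71832570, minus strand): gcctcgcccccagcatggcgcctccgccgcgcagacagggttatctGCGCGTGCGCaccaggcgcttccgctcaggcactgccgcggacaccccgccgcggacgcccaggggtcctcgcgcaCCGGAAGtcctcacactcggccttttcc
Mrpl36 (chr1:31795122-31795271, minus strand): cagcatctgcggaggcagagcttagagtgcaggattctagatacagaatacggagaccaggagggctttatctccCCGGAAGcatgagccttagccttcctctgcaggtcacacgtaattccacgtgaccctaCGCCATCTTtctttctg
Mtif2 (chr14:107466783-107466932, plus strand): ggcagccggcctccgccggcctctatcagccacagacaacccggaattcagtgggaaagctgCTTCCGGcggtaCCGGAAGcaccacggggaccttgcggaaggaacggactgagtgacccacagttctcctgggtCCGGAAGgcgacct

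Library totals lay between 17875089 and 19204440 counts. The scaling between the ages bears on every value here, since a few plexus transcripts were far higher in the adult (*Ttr*, for transthyretin, had 476150.0 to 612984 raw counts at E15 and 2649939 to 3238055 in adults) and TMM, which scales libraries by the bulk of their genes, gave factors of 1.32 to 1.33 at E15 and 0.735 to 0.773 in the adult. Normalized counts are raw counts scaled in this way, and a positive log2 fold change means a higher level at E15. Over the 16643 genes tested, the log2 fold change had a median of 0.14 with TMM and 0.94 when libraries were scaled by their totals only. A member that was modestly higher in the adult with TMM could therefore take the opposite sign as a share of its library. E15 replicate 1 stood apart from the other E15 libraries, as its chi-square against replicates 2 and 3 was 56.8 and 47.5 per degree of freedom, where those had 5.43 against each other and the adult pairs 8.36 to 12.5.

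With TMM scaling most members were higher in the adult. Of the 67 that had enough counts to be tested, 57 were higher in the adult and 10 at E15. By edgeR's quasi-likelihood test with adjustment over all genes, 56 were called in the adult and 9 at E15. Over all genes tested, 64.0% were called, 34.7% at E15 and 29.3% in the adult, but since the authors' own calls on these libraries had chosen the members, nothing is read from the comparison. The carriers stood furthest to the adult side, with a median log2 fold change of -1.35, and 13 of them were more than 2-fold higher in the adult. The medians were -0.70 for import genes, -0.73 for ribosome genes and -0.93 for the others. Set against the median of all genes, which takes out the choice of scaling, they were -1.49 for carriers, -0.84 for import, -0.87 for ribosome genes and -1.07 for the others with TMM, and -1.49, -0.84, -0.86 and -1.06 with total counts. All genes include those that the authors had not called, which could not be members. The 10496 identifiers of the deposited comparison that were tested here had a median of 0.74 with TMM. Of these, 44.9% were higher in the adult and 92.0% were called.

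As shares of the library the picture was more even. Under scaling by total counts only, 32 members were higher at E15 and 35 in the adult, and 10 and 18 of them were called, where 58.9% of all genes tested were called at E15 and 13.8% in the adult. With that scaling 22 members took the opposite sign, of which 15 were ribosome genes, and 0 of these were called in their new direction. Pools of the ages did not overlap in normalized counts for 64 members, 56 higher in the adult and 8 at E15, beside 32.1% and 38.0% of all genes tested. On total counts the pools did not overlap for 22 members higher in the adult and 13 at E15, beside 15.4% and 61.8% of all genes. On both scales alike, the pools separated in the same direction for most carriers and for a minority of ribosome genes.

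**Figure D1:**
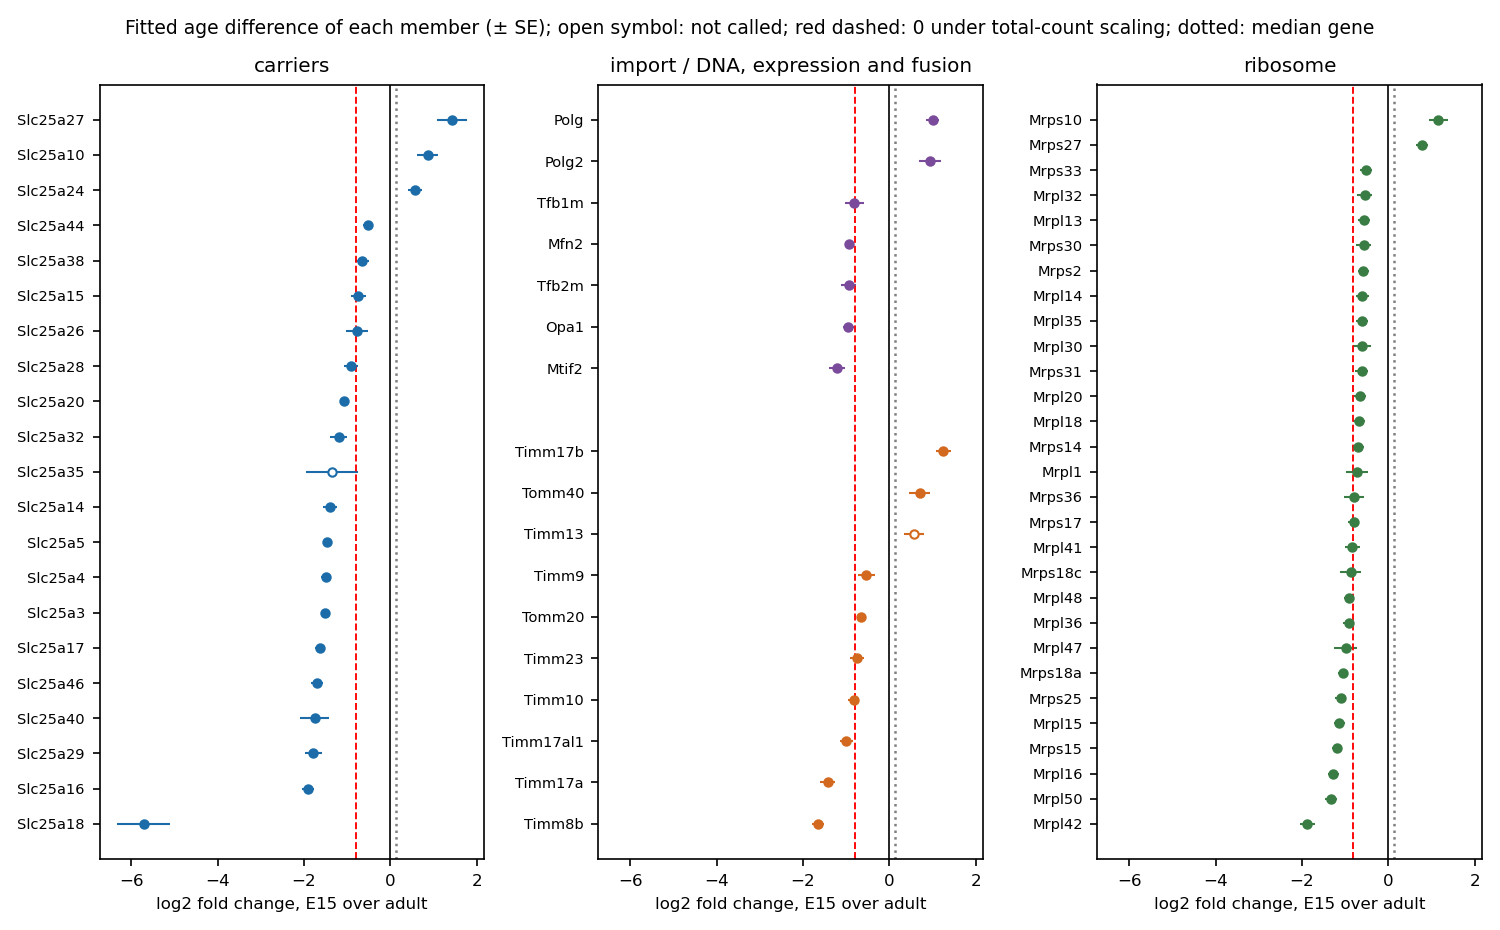
Fitted log2 fold change (E15 over adult, with its standard error) of the 67 members tested, by group; open circles were not called. The solid line is 0 with TMM, the dotted line the median of all genes (0.14), and the red dashed line the place where the difference would be 0 with total-count scaling. Most ribosome genes lie close to the red line, while most carriers lie to its left.

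The summed counts of each group show the same contrast between carriers and the rest. The 22 carriers together took 1621, 1426 and 1472 CPM (counts scaled to a common library total) in E15 replicates 1 to 3 against 2285, 2263 and 2317 in adult pools replicates, without overlap and 1.52-fold higher in the adult. The 29 ribosome genes took 1165, 959.7 and 985 CPM at E15 against 1049.8, 1034 and 1071 in adult pools, so that their ranges overlapped and the means differed by 1.01-fold. For import genes the sum was higher at E15, with 563 ± 59.2 against 468 ± 7.98 CPM (SD, n = 3), and for the 7 others 435 ± 14.3 against 389 ± 5.40. In TMM-normalized counts all of these sums were higher in the adult, by 2.66-fold for carriers, 1.77-fold for ribosome genes, 1.45-fold for import genes and 1.57-fold for the others. A pair of genes, *Slc25a3* and *Slc25a4*, made up 62.4% to 63.6% of the carrier counts at E15 and 66.7% to 68.3% in the adult. Single genes also weighed on the other sums. *Timm13* held 16.1% to 27.2% of the import counts at E15 and 10.1% to 11.9% in the adult. *Timm8b* went the other way, from 12.2% to 20.6% at E15 to 32.3% to 33.2% in the adult. Of the counts of the 7 others, *Polg* held 18.4% to 26.0% at E15 and 6.81% to 7.83% in the adult, and *Mfn2* 41.2% to 45.4% and 52.3% to 53.7%.

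**Figure D2:**
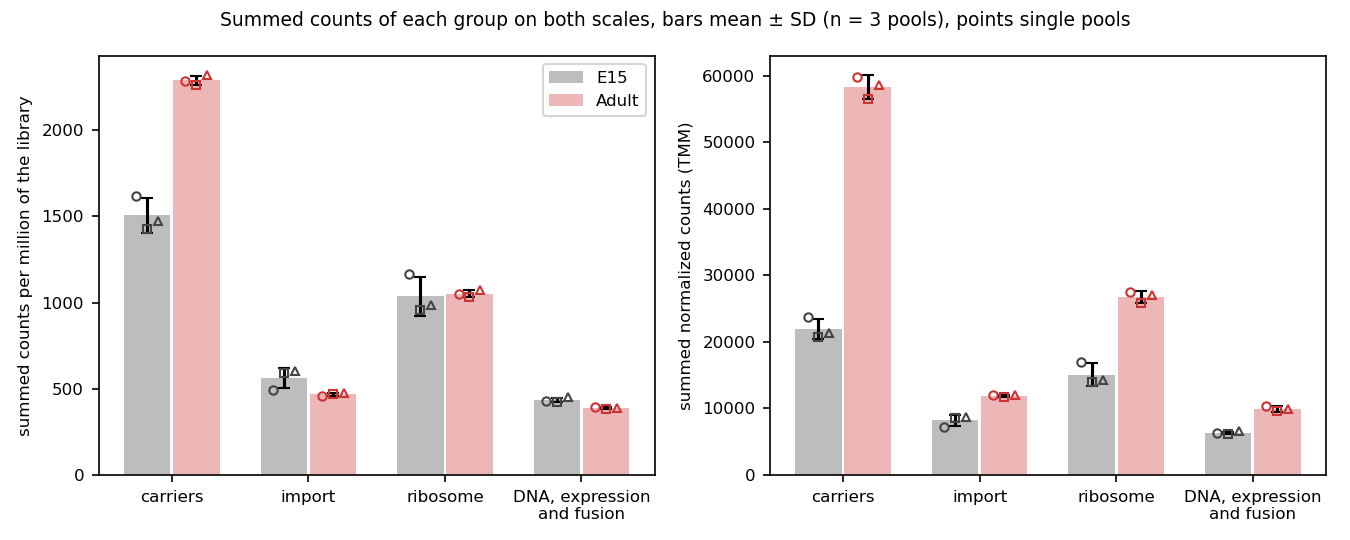
Summed counts of each group by age, as CPM of the library (left) and as TMM-normalized counts (right). Bars are means ± SD of 3 pools and points are single pools (circle 1, square 2, triangle 3). Carriers are higher in the adult on both scales, whereas the ribosome genes differ only on the right.

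Carriers that feed ATP synthase held most of the carrier counts, which were not corrected for transcript length. The ADP/ATP exchanger *Slc25a4*, the isoform best known from heart and muscle, had 10351, 8822 and 9010 raw counts in E15 replicates 1 to 3 against 15719, 15657 and 14888 in adult pools. Its adult level was 2.82-fold that at E15 (log2 fold change -1.50, SE 0.11). The phosphate carrier *Slc25a3*, named here after its values were seen, had 8074, 7996 and 8193 counts at E15 against 13172, 13523 and 13581 in adult pools, a 2.86-fold difference. Both were higher in every adult pool than in any E15 pool, already as raw counts. *Slc25a5*, the more widely expressed ADP/ATP exchanger, had 510, 508 and 545 counts at E15 against 789, 866 and 843 in adult pools, and its 2.75-fold difference was close to that of *Slc25a4*. Reads that mapped to several places had been discarded, and *Slc25a5* has many processed copies in mammalian genomes, so its count is uncertain. *Slc25a31*, the testis ADP/ATP exchanger, held 1 count at E15 and 8 in the adult, too few to be tested.

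Carriers for cofactors, fatty acids and amino acids were also higher in the adult. *Slc25a16*, a carrier linked to coenzyme A, had 952, 712 and 757 raw counts at E15 against 1646, 1938 and 1720 in adult pools (3.75-fold, log2 fold change -1.91, SE 0.15). *Slc25a17*, which sits in peroxisomes and carries coenzyme A and flavin and nicotinamide nucleotides, had 1397, 1277 and 1241 counts at E15 against 2218, 2321 and 2481 in adult pools (3.08-fold). *Slc25a46*, an outer membrane member of the family that takes part in mitochondrial shape rather than transport, had 1816, 1406 and 1402 counts against 2782, 2893 and 3119 (3.27-fold). None of these overlapped between the ages, in raw or in normalized counts. *Slc25a29*, a carrier of basic amino acids, was 3.44-fold higher in the adult, with 131, 223 and 184 counts at E15 against 335, 400 and 339 in adult pools. *Slc25a20*, which brings acylcarnitines in for fatty acid oxidation, had 1854, 1966 and 1991 counts at E15 against 2457, 2307 and 2340 in adult pools, a smaller difference of 2.11-fold. The glutathione carrier *Slc25a40* was 3.36-fold higher in the adult, and its E15 counts of 104, 50 and 49 were uneven, with E15 replicate 1 at 2.20 times the mean of the other pools.

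The largest ratio was that of *Slc25a18*, a glutamate carrier, with 0, 5 and 2 raw counts at E15 against 62, 104 and 63 in adult pools. Its ratio of normalized counts was 56.3 (exact 95% interval 26.9 to 142) in favour of the adult. Without E15 replicate 2, which held 5 of the 7 E15 counts, the ratio was 130 (95% interval 35.5 to 1077). It was 38.2 (18.2 to 96.1) without E15 replicate 1 and 52.4 (22.1 to 163) without E15 replicate 3. All of these intervals cover counting error only. The gene was thus near its detection limit in the embryo.

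Carriers with smaller differences depended on the scaling. The ornithine carrier *Slc25a15* had 163, 207 and 191 raw counts at E15 against 166, 200 and 178 in adult pools, with a log2 fold change of -0.74 by TMM and 0.06 by total counts. Mitoferrin-2 (*Slc25a28*), which brings in iron, had 430, 619 and 587 counts at E15 against 570, 695 and 523 in adult pools, with -0.91 by TMM and -0.11 by total counts. As shares of the library their pools overlapped between the ages, and so did those of *Slc25a26* (S-adenosylmethionine), *Slc25a32* (folate and flavin), *Slc25a38* (glycine for haem) and *Slc25a35*, whose substrate is not established. *Slc25a44*, a carrier of branched-chain amino acids, was 1.44-fold higher in the adult by TMM, while its raw counts of 794, 718 and 756 at E15 were all above the 642, 619 and 632 of the adult. *Slc25a35* was the only carrier tested that was not called, with 6, 17 and 15 counts at E15 against 30, 17 and 9 in adult pools, and the call was made, at 3.28-fold, without adult replicate 3.

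A set of 3 carriers was higher at E15 by every scaling. *Slc25a27* (UCP4), an uncoupling-type carrier of neurons, had 147, 91 and 87 raw counts at E15 against 23, 30 and 18 in adult pools (2.68-fold, log2 fold change 1.42, SE 0.35). *Slc25a10*, which exchanges malate and succinate for phosphate, had 296, 595 and 583 counts at E15 against 168, 164 and 136 in adult pools (1.82-fold). *Slc25a24*, a calcium-regulated carrier of ATP-magnesium, had 838, 635 and 623 counts at E15 against 238, 322 and 266 in adult pools (1.48-fold). Every E15 pool lay above every adult pool for the 3 genes, although E15 replicate 1 came close to the adult pools for *Slc25a10* in normalized counts. The call of *Slc25a10* was lost without E15 replicate 3 (1.64-fold) and without adult replicate 3 (1.68-fold), and that of *Slc25a24* without adult replicate 1 (1.39-fold) or 3 (1.44-fold), so that only *Slc25a27* was called at E15 without adult replicate 3. *Slc25a14* (UCP5), the uncoupling-type relative of *Slc25a27*, went the other way, with 313, 264 and 248 counts at E15 against 375, 408 and 487 in adult pools (2.64-fold). Developing neuron markers were also mostly higher at E15, and 7 of the 8 listed genes were called there, beside 34.7% of all genes tested. All 8 had a name, which came from the authors' calls, so nothing is read from that count. The summed normalized counts of these markers were 1663 to 4894 at E15 and 146 to 726 in the adult, and *Nhlh1* was at 0 in the adult. *Gap43* was not called, and the pools of *Stmn2* overlapped in normalized counts. Both that sum and *Slc25a27* were highest in E15 replicate 1. In E15 replicates 2 and 3 the sum was 1663 and 3640, whereas *Slc25a27* was at 70.1 and 68.2 normalized counts. The part of developing neurons in the difference was not tested.

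**Figure D3:**
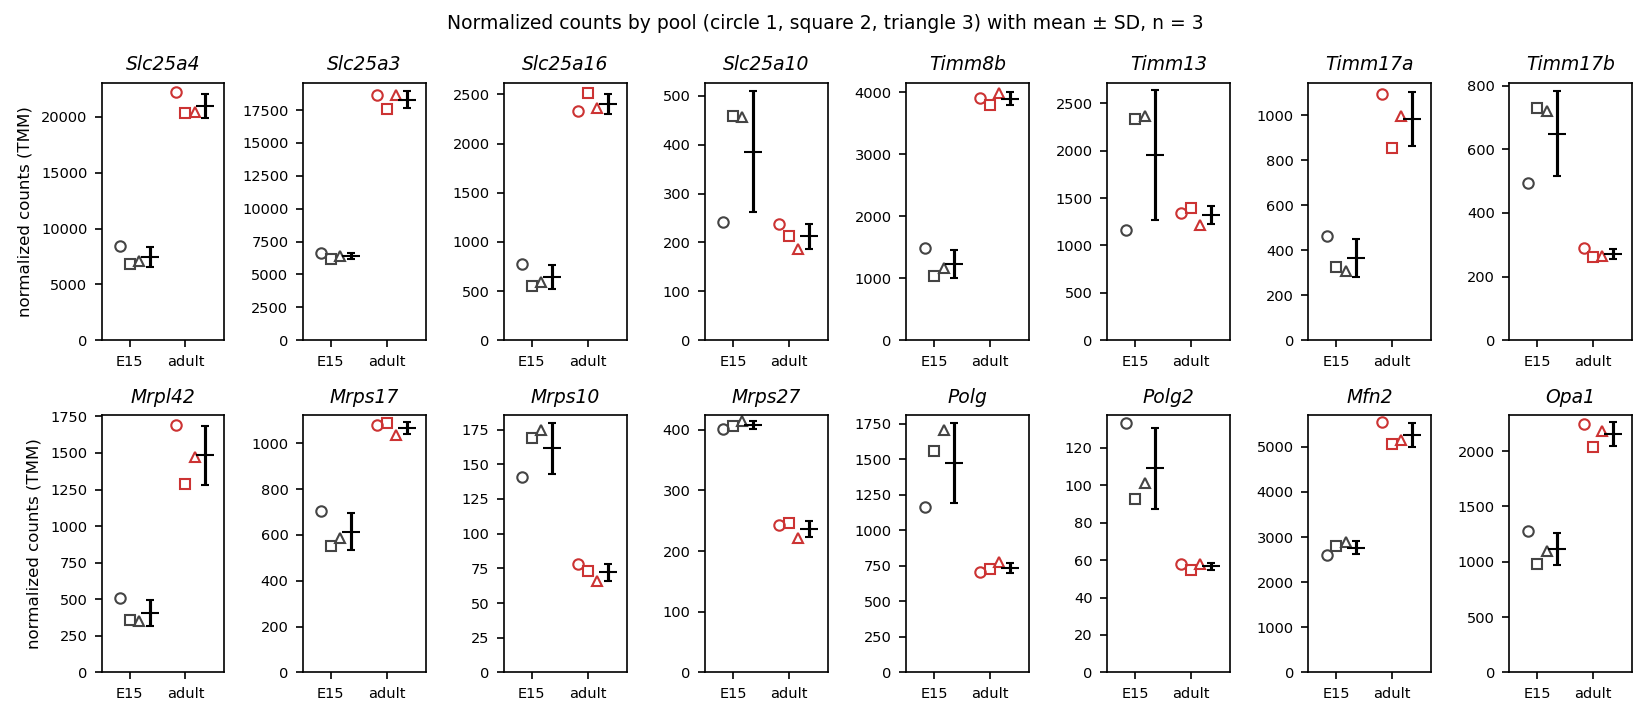
TMM-normalized counts of 16 members in each pool at E15 (grey) and in the adult (red), with the mean and SD of 3 pools beside them; every axis starts at 0. The ages separate for all but *Timm13*, where E15 replicate 1 lies below the adult pools and the other E15 pools above them.

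The import genes fell into 2 sets. *Timm8b*, a small Tim chaperone, had 1820, 1356 and 1481 raw counts at E15 against 2765, 2921 and 2909 in adult pools (3.17-fold, log2 fold change -1.66, SE 0.14). *Timm17a*, a subunit of the TIM23 channel complex, had 566, 421 and 391 counts at E15 against 772, 659 and 727 in adult pools (2.69-fold). Its alternative isoform *Timm17b* had 604, 948 and 920 counts at E15 against 205, 201 and 193 in adult pools, and was 2.38-fold higher at E15 (log2 fold change 1.25, SE 0.18). The adult counts of *Timm17a* and *Timm17b* thus lay on opposite sides of their E15 counts, without overlap. *Timm17al1*, a gene named as *Timm17a*-like, was 2.0-fold higher in the adult by TMM, with 352, 299 and 270 counts at E15 against 358, 357 and 354 in adult pools. Because only uniquely mapped reads were kept, the division of reads between *Timm17a* and *Timm17al1* is uncertain.

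The small Tim genes *Timm9* and *Timm10* and the channel showed modest differences that depended on the scaling. *Timm10* had 407, 435 and 422 raw counts at E15 against 431, 459 and 412 in adult pools, and its partner *Timm9* had 306, 226 and 252 against 234, 193 and 232. By TMM they were 1.77- and 1.45-fold higher in the adult, and the call of *Timm9* was lost without adult replicate 1 or 3 or without E15 replicate 2 or 3 (1.34- to 1.43-fold). *Timm23*, the channel subunit, had 254, 389 and 332 counts at E15 against 299, 316 and 334 in adult pools, 1.68-fold by TMM. As shares of the library these 3 genes overlapped between the ages.

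The outer membrane genes differed from each other, and the small Tim gene *Timm13* was uneven at E15. *Tomm20*, the receptor for presequences, had 2365, 2465 and 2410 raw counts at E15 against 2001, 2329 and 2286 in adult pools, higher in the adult by TMM (1.57-fold) and lower by raw counts in every adult pool. *Tomm40*, the pore, had 757, 1580 and 1690 counts at E15 against 494, 521 and 416 in adult pools, 1.62-fold higher at E15. *Timm13*, the partner of the Timm8 proteins, had 1422, 3028 and 3025 counts at E15 against 946, 1079 and 886 in adult pools. Its difference of 1.48-fold at E15 was not called, and without E15 replicate 1 it was called at 1.78-fold. E15 replicate 1 held *Tomm40* and *Timm13* at less than the level of the other E15 pools (ratios of 0.488 and 0.495 to their mean), and in normalized counts both genes overlapped between the ages. By total counts both were called at E15 (log2 fold changes of 1.51 and 1.38), as were 58.9% of all genes tested. On that scale every E15 pool lay above every adult pool for both. The call of *Tomm40* was lost when any library other than E15 replicate 1 was left out (1.41- to 1.65-fold).

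The mitochondrial ribosome genes were nearly uniform. All 16 genes named Mrpl and 11 of the 13 named Mrps were higher in the adult by TMM, with medians of -0.78 and -0.71 on the log2 scale. These prefixes stand for the large and the small subunit. The split is by name only, and a name need not match the place of its protein. The median difference of the 27 was 1.73-fold, and 20 of them were at or below 2-fold. A typical example is *Mrps17*, with 862, 715 and 751 raw counts at E15 against 762, 837 and 754 in adult pools. As shares of the library 19 of the 29 genes overlapped between the ages, while 7 were higher in every adult pool and 3 in every E15 pool. Over all genes tested, 15.4% were higher in every adult pool and 61.8% in every E15 pool on that scale. For those of the 19 that were higher in the adult by TMM, the excess over the bulk of other genes was not a separation of the pools by library total. Of the 29 genes, 12 kept a negative log2 fold change with total counts.

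The widest adult differences among them were spread over both prefixes. *Mrpl42* had 619, 462 and 449 raw counts at E15 against 1193, 991 and 1072 in adult pools (3.66-fold, log2 fold change -1.87, SE 0.18). *Mrpl50* had 396, 351 and 361 counts against 473, 570 and 585 (2.52-fold), and *Mrpl16*, a protein with a bacterial counterpart, 668, 636 and 551 against 800, 939 and 880 (2.42-fold). In these 3 genes the raw counts of the ages did not overlap. *Mrps15* (2.26-fold) and *Mrpl15* (2.19-fold) followed, with raw counts of 579, 549 and 543 against 690, 805 and 707, and of 1413, 1232 and 1200 against 1487, 1701 and 1720. *Mrps25* and *Mrps18a*, at 2.15- and 2.08-fold, completed the 7 genes above 2-fold, which were the 7 ribosome genes whose share of the library was higher in every adult pool.

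With TMM, 2 ribosome genes were higher at E15, and both encode small subunit proteins. With total counts 17 of the 29 had a positive log2 fold change, of which *Mrps10* and *Mrps27* were called at E15, and *Mrps33* also had every E15 pool above every adult pool as a share of the library. *Mrps10* had 172, 219 and 223 raw counts at E15 against 55, 56 and 48 in adult pools (2.24-fold, log2 fold change 1.16, SE 0.22). *Mrps27*, a protein with RNA-binding repeats, had 490, 527 and 528 counts at E15 against 171, 189 and 161 in adult pools (1.72-fold). The pools of *Mrps10* and *Mrps27* did not overlap on either scale, and both calls were kept with each library left out and by each scaling tried. The paralogs *Mrps18a* and *Mrps18c*, which occupy different places in the ribosome, were both higher in the adult, by 2.08- and 1.83-fold. *Mrps36*, listed in the current RefSeq table as *Kgd4* and now known as a part of the oxoglutarate dehydrogenase complex, was low, with 66, 89 and 80 counts at E15 against 76, 78 and 82 in adult pools. The members with the smallest fitted changes included *Mrps33* (log2 fold change -0.52), *Slc25a44* (-0.52), *Timm9* (-0.53) and *Mrpl32* (-0.55) on the adult side and *Timm13* (0.57) and *Slc25a24* (0.57) at E15. The authors' call was a limit on an adjusted p and not on the fold, and genes that missed it are not named here.

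The polymerase of mitochondrial DNA and the genes for its expression lay on opposite sides by TMM. *Polg*, the catalytic subunit of the mitochondrial DNA polymerase, had 1421, 2022 and 2176 raw counts at E15 against 497, 562 and 563 in adult pools (2.01-fold higher at E15, log2 fold change 1.0, SE 0.15). *Polg2*, its accessory subunit, had 163, 120 and 129 counts at E15 against 41, 42 and 42 in adult pools (1.92-fold). Neither overlapped between the ages on either scale. *Tfb2m*, a transcription factor for mitochondrial RNA polymerase, had 468, 328 and 366 counts at E15 against 440, 463 and 400 in adult pools (1.92-fold in the adult by TMM), and *Tfb1m*, which methylates the ribosomal RNA, 532, 357 and 299 against 425, 409 and 380 (1.75-fold). *Mtif2*, the translation initiation factor, had 391, 263 and 297 counts against 390, 432 and 461 (2.31-fold). Raw counts of these last 3 genes overlapped between the ages. Markers of dividing cells were also higher at E15. Of the 6 listed genes, 4 had a name, again through the authors' calls, and *Ccna2* among them was at 0 in adult replicate 1. The summed normalized counts of the 4 were 7218 to 8668 at E15 and 110.4 to 154 in the adult. Within E15 that sum was highest in replicate 1, as was *Polg2*, whereas *Polg* was lowest there (1163 normalized counts against 1557 and 1706). The part of dividing cells in the difference was not tested.

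The fusion genes were higher in the adult. *Mfn2*, which joins outer membranes, had 3176, 3635 and 3693 raw counts at E15 against 3921, 3893 and 3758 in adult pools (1.90-fold by TMM, log2 fold change -0.93, SE 0.10). *Opa1*, which joins inner membranes, had 1557, 1276 and 1395 counts at E15 against 1585, 1566 and 1586 in adult pools (1.93-fold, log2 fold change -0.95, SE 0.12). On total counts the log2 fold changes of both were small, at -0.12 and -0.14. Both genes thus differed by a similar fold with TMM.

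Ratios between members within a library do not depend on the scaling, and several shifted between the ages. The pairs were chosen with the values known. The ratio of *Timm17a* to *Timm17b* counts was 0.937, 0.444 and 0.425 in E15 replicates 1 to 3 against 3.77, 3.28 and 3.77 in adult pools, a 6.41-fold shift. That of *Timm8b* to *Timm13* was 1.28, 0.448 and 0.490 at E15 against 2.92, 2.71 and 3.28 in adult pools (4.52-fold). That of *Mrpl42* to *Mrps10* went from 3.6, 2.11 and 2.01 to 21.7, 17.7 and 22.3 (8.25-fold), and that of *Slc25a14* to *Slc25a27* shifted 6.98-fold. These ratios did not overlap between the ages, nor did those of *Tomm20* to *Tomm40* (2.43-fold toward *Tomm20*) and *Polg* to *Tfb2m* (from 3.04, 6.16 and 5.95 to 1.13, 1.21 and 1.41). Because genes differ in length, the shift of a ratio can be read, and its level cannot.

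In other pairs the ratios of the ages overlapped. The ratio of *Slc25a4* to *Slc25a5* was 18.1 ± 1.98 (SD, n = 3) in the embryo and 18.6 ± 1.2 in the adult, and that of *Slc25a4* to *Slc25a3* was 1.16 ± 0.104 and 1.15 ± 0.0491. The ratio of *Mfn2* to *Opa1* was 2.51 ± 0.421 and 2.44 ± 0.0640. For *Polg* to *Polg2* it was 14.1 ± 4.70 and 12.97 ± 0.734, for *Tfb1m* to *Tfb2m* 1.01 ± 0.172 and 0.933 ± 0.0438, and for *Timm10* to *Timm9* 1.64 ± 0.299 and 2.0 ± 0.330. The overlap rested in 3 of these pairs on E15 replicate 1. Without it, *Polg* to *Polg2* was 16.9 in both E15 pools against 12.1 to 13.4 in the adult, *Mfn2* to *Opa1* 2.85 and 2.65 against 2.37 to 2.49, and *Slc25a4* to *Slc25a5* 17.4 and 16.5 against 17.7 to 19.9, so that the ages no longer overlapped.

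**Figure D4:**
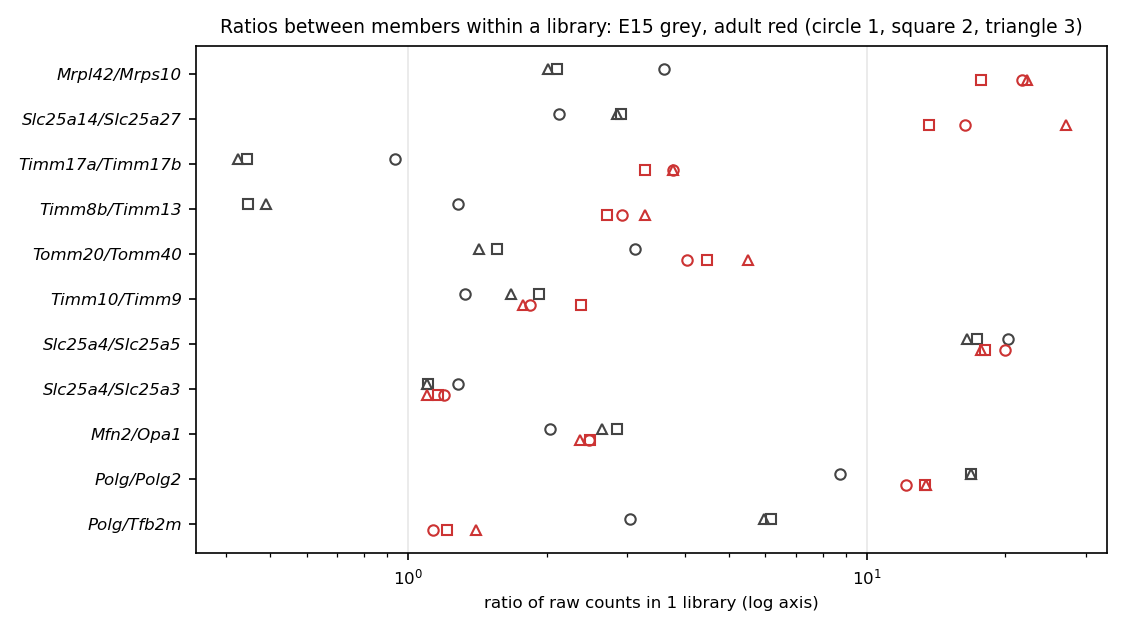
Ratio of the raw counts of 2 members within each library, on a log axis, at E15 (grey) and in the adult (red); circle, square and triangle are replicates 1, 2 and 3. The ratios in the upper rows separate the ages, with *Timm17a* to *Timm17b* at 0.425 to 0.937 in the E15 libraries and 3.28 to 3.77 in the adult ones, while those of *Slc25a4* to *Slc25a5*, *Slc25a4* to *Slc25a3*, *Mfn2* to *Opa1* and *Polg* to *Polg2* overlap when E15 replicate 1 (circle) is included.

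Spread within an age was not used in choosing the members, and it lay mostly in E15 replicate 1. Of 61 members with a mean above 100 normalized counts, 8 (13.1%) differed by more than 1.5-fold from the mean of the other pools in that library, compared with 20.1% of 11003 genes of that level. In the adult libraries 0 of the 61 did so, beside 5.83% to 6.31% of all genes. The median coefficient of variation of the members was 15.3% over the E15 pools, 7.11% over the adult pools and 3.48% between E15 replicates 2 and 3 alone, where all genes of that level had 13.6%, 8.35% and 4.45%. The members moved in both directions in E15 replicate 1. *Slc25a40*, *Mrpl47*, *Mrps18c*, *Tfb1m* and *Mrpl1* were high there (2.20, 2.06, 1.78, 1.71 and 1.61 times the mean of the other pools), and *Timm13*, *Tomm40* and *Slc25a10* were low (0.495, 0.488 and 0.530 times). Taken over the 61 members, the median deviation of E15 replicate 1 was 0.26 on the log2 scale, while that of all genes was -0.01. Without this library the medians of the groups were -1.42 for carriers, -0.68 for import, -0.87 for ribosome genes and -1.05 for the others.

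**Figure D5:**
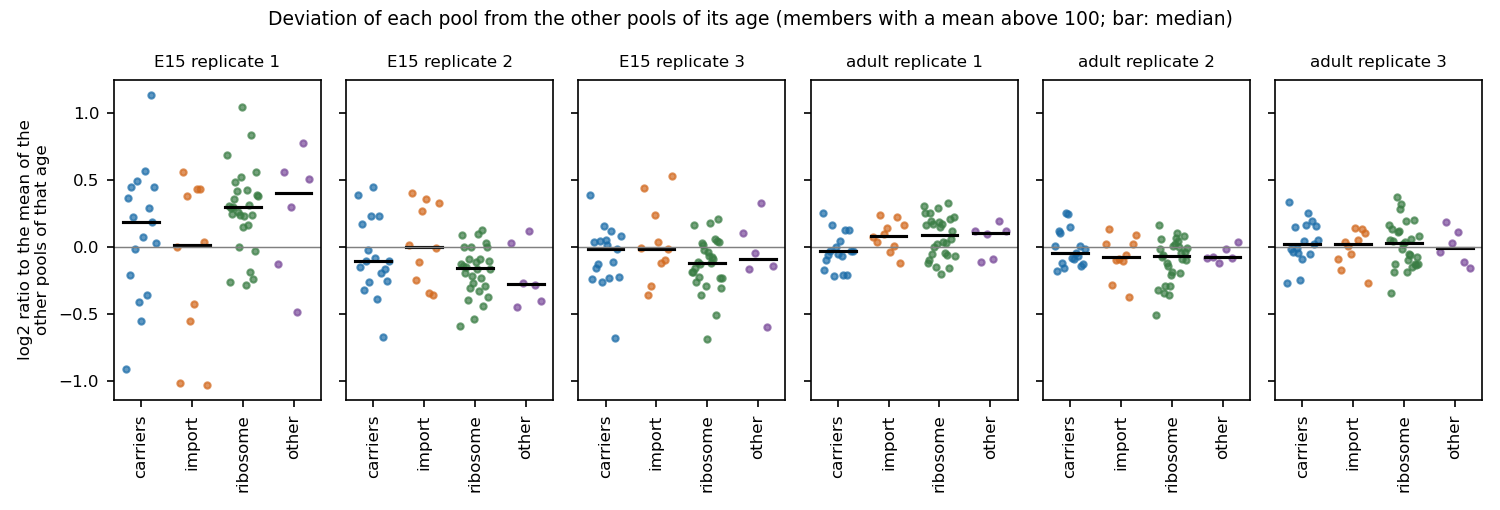
Log2 ratio of each pool to the mean of the other pools of its age, for the 61 members with a mean above 100 normalized counts, by group (other: the genes of DNA, expression and fusion); bars are medians. The points of E15 replicate 1 spread widest and reach about 1 in both directions, and the adult pools lie closest to 0.

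Other genes of mitochondrial biogenesis were taken from lists of 118 symbols and older symbols, of which 43 had a name and were tested. By TMM, 31 were called in the adult and 11 at E15, beside 29.3% and 34.7% of all genes tested, and by total counts 11 and 13, beside 13.8% and 58.9%. The named genes had again been chosen by the authors' calls, so nothing is read from these counts. All 5 inner membrane and matrix proteases with a name were called in the adult by TMM, among them *Oma1*, which cleaves OPA1, with 107, 145 and 111 raw counts at E15 against 271, 258 and 297 in adult pools (3.93-fold). *Brp44l* (*Mpc1*), a subunit of the pyruvate carrier, had 681, 647 and 737 counts at E15 against 2738, 3309 and 3059 in adult pools (7.57-fold), and *Tspo*, an outer membrane protein that binds cholesterol, was 4.34-fold higher in the adult. The chaperones that pull and fold imported proteins, *Hspa9*, *Hspd1* and *Hspe1*, were 1.98-, 1.72- and 2.14-fold higher in the adult by TMM. *Phb2* and *Mtx1* were 1.60- and 1.53-fold higher at E15, and so were the tRNA synthetases *Vars2* (2.86-fold), *Sars2* (1.77-fold) and *Aars2* (1.5-fold). The pools of *Mtx1* and *Aars2* overlapped between the ages in normalized counts.

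The regulators of these genes differed by age in opposite directions. *Ppargc1a*, the coactivator that drives mitochondrial biogenesis, had 174, 169 and 176 raw counts at E15 against 774, 844 and 826 in adult pools (8.10-fold, log2 fold change -3.02, SE 0.12). The nuclear receptor *Esrrg* had 109, 122 and 123 counts at E15 against 1331, 1549 and 1607 in adult pools (21.8-fold), and its relative *Esrra* 418, 677 and 663 against 1270, 1688 and 1365 (4.24-fold). These 3 genes were higher in the adult under every scaling. At E15 *Nrf1* had 558, 771 and 789 counts and in the adult 162, 157 and 141 (2.66-fold higher at E15), *Pprc1*, a coactivator of growing cells, was 2.74-fold higher, *Yy1* 1.84-fold and *Gabpb1* 1.79-fold. *Gabpa*, whose family binds the CCGGAAG motif shown above, had 3854, 2453 and 2383 counts at E15 against 2277, 2734 and 2828 in adult pools, overlapping in raw counts and 1.54-fold higher in the adult by TMM. *Myc* had 270, 235 and 232 counts at E15 and 7 in each adult pool (20.2-fold). Whether any of these factors acts on the members was not tested.

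The promoter motifs were set beside the direction of the members, without a test. Any of the 4 motifs was in 3 of the 10 promoters of members higher at E15 (30.0%) and in 25 of the 48 of those higher in the adult (52.1%). The NRF1 motif was in 0 and 5 of them and the YY1 motif in 2 and 6. CCGGAAG was in 3 at E15 (*Mrps10*, *Mrps27* and *Polg*) and 18 in the adult. *Timm8b* and *Timm10*, with several matches each in the sequences shown, were 3.17- and 1.77-fold higher in the adult, and *Timm17a* and *Timm17b* had no match of any of the 4 motifs in their windows.

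A further 6 identifiers belong to these families by their description but carry other names, and were found after the values were seen. LOC691431, similar to a mitochondrial carrier, had 287, 288 and 345 raw counts at E15 against 837, 924 and 845 in adult pools (4.87-fold). RM42_RAT, a second identifier described as ribosomal protein L42, had 125, 154 and 145 counts against 280, 315 and 306, a 3.66-fold difference that is the same size as that of *Mrpl42*, and reads of the pair may be divided between them. RGD1307279, described as TIM21-like, was 2.69-fold higher in the adult, TIM16_RAT 1.67-fold and B2RYT0_RAT (ribosomal protein S21) 1.55-fold. *Mcart1*, a further carrier, had 16, 14 and 20 counts against 11, 20 and 43 and overlapped between the ages.

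The named tissue markers moved strongly with age, beside every difference given here, but their names too had come from the authors' calls. Of 9 markers of choroid plexus epithelium, 6 had a name, 0 were at 0 in either age, and their summed normalized counts were 431990.0 to 534342 at E15 and 3950330.0 to 4889140.0 in the adult. Most of that sum was *Ttr*, with 389713 to 480714 at E15 and 3639580 to 4584670 in the adult (8.96-fold). The other named markers were higher in the adult by 2.76-fold (*Aqp1*) and 2.88-fold (*Clic6*) up to 45.1-fold (*Kl*). Striated muscle, where *Slc25a4* is also abundant, had 4 named markers of 10, with sums of 302 to 409 at E15 and 2348 to 3288 in the adult, of which *Cox8b* had 5, 3 and 0 raw counts at E15 against 1318, 1092 and 1178 in adult pools. The list was mixed, as *Myh2* was also called in the adult, *Tnnt3* was called at E15 with 30, 22 and 24 raw counts against 0, 2 and 0, and *Acta1*, with 10, 23 and 20 against 6, 7 and 1, was not called. The sums of the named endothelial and mesenchymal markers were higher at E15, at 3862 to 4725 against 334 to 608 and at 34932 to 47836 against 4293 to 6130.3, although *Dcn* among the latter was higher in the adult. The part of cell composition in the differences of the members was not tested.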

How the data were processed

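RNA of 6 libraries, each of 1 pool of 10 rats, was compared between E15 and the adult with 3 pools at each age. Samples were grouped by their labels, and 0 columns were left out. The deposited counts are whole reads per Ensembl gene, made by the authors with Bowtie 0.12.7 against the rat genome and Ensembl release 61, keeping uniquely mapped reads, and HTSeq 0.4.7p4 in union mode, with no normalization. The authors' own comparison table (edgeR 2.4.0) holds gene names, log abundance, fold changes and p-values, and only its names were used. The genome build of the reads is older than the RefSeq tables used here (GRCr8), which gave the promoters only.

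Genes with more than 10 counts over all libraries (16643 of 29479) were tested with edgeR 4.0.16 (R 4.3.3): TMM scaling, the quasi-likelihood F-test for age, and Benjamini-Hochberg adjustment over all genes tested, with calls at 0.05. Normalized counts are raw counts scaled to the mean effective library. Fold changes are fitted ones. Ratios of a gene with few counts carry exact conditional intervals at 95%, which cover counting error only. Total counts were 17875089 to 18901272 at E15 and 18421472 to 19204440 in the adult. Libraries of the same age differed by more than sampling noise (chi-square per degree of freedom 5.43 to 56.8), so each was counted as a replicate. All p-values measure the spread between pools. The test was checked on simulated data. Python 3.11.15 with pandas 2.3.3, scipy 1.17.1 and matplotlib 3.10.9 made the remaining tables and plots.

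Genes described singly were, of the carriers, import and ribosome genes, the 5 with the largest fitted change in each direction (mean above 100 counts at the higher age), all members of listed paralog sets, and all of the remaining group. Of the other genes of the pathway these were the regulators and those called with more than 4-fold change. Names outside this rule (*Slc25a3*, *Slc25a26*, *Slc25a32*, *Slc25a35*, *Slc25a38*, *Slc25a44*, further ribosome genes, chaperones, synthetases and *Oma1*) were chosen after their values were seen. Levels per coding length, whole families and protein sequences were not analysed here. The members, lists and pairs were chosen with earlier results of these data known. Alternatives were other scalings (RLE, upper quartiles, total counts with and without the 10 highest genes), other filters, DESeq2 1.42.0, limma 3.58.1 with voom, an exact test with a common dispersion, a block for replicate number, and each library left out.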

Additional observations from a re-analysis of the deposited data

How the results depend on the processing

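The scaling between libraries set most counts of members called. With total counts only, 11 carriers, 2 import genes, 5 ribosome genes and 0 of the others were called in the adult, with 9799 of all genes at E15 and 2292 in the adult, and 11 other pathway genes in the adult. The log2 fold changes of *Slc25a15* (0.065), *Timm23* (0.056), *Tomm20* (0.15) and *Timm9* (0.27) then took the opposite sign. With total counts less the 10 highest genes, 4 import genes, 10 ribosome genes, 20 other pathway genes and 3196 of all genes were called in the adult. The median of all genes moved from 0.14 with TMM to 0.94 and 0.60 in these scalings. With limma-voom 1 import gene was called at E15. When a library was left out, 1 to 3 carriers, 1 to 3 import genes and 7 to 11 other pathway genes were called at E15, and 16 to 18 carriers, 6 to 7 import genes and 22 to 27 ribosome genes in the adult. Of all genes tested, 5009 to 6218 were then called at E15 and 4327 to 5449 in the adult. Without adult replicate 3, 1 carrier was called at E15 and 7 other pathway genes.

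Libraries carry replicate numbers 1 to 3 at both ages, but deviations of same-numbered libraries did not correlate (r = -0.02, -0.01 and -0.06 across genes). With the replicate number as a block, 3 carriers, 2 import genes, 2 ribosome genes and 2 others were called at E15 and 17, 7, 27 and 5 in the adult, with 5320 and 4608 of all genes and 11 and 30 other pathway genes.

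Groups less the median of all genes, which include genes the authors had not called, stayed on the adult side under every alternative run. The whole families named through the reference table were not run. Depth limited *Slc25a31*, *Slc25a18* and *Slc25a35*.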

Other observations

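Genes of mitophagy, the removal of mitochondria, were not described above. The list held 6 genes, of which 3 had a name, and all 3 were called in the adult by TMM and 2 by total counts, beside 29.3% and 13.8% of all genes tested; their names too had come from the authors' calls. *Bnip3*, an outer membrane receptor for mitophagy, had 222, 160.0 and 170.0 raw counts at E15 against 445, 414 and 393 in adult pools. *Fundc1*, another such receptor, had 1364, 973 and 912 counts against 1807, 1891 and 1739. The ages did not overlap in either gene. *Pink1*, a kinase that marks damaged mitochondria, had 889, 1691 and 1583 counts at E15 against 1736, 1880.0 and 1376 in adult pools, so its raw counts overlapped.

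On the E15 side, *Smcr7l* (*Mief1*), an outer membrane factor for fission, had 635, 760.0 and 798 counts at E15 against 172, 220.0 and 192 in adult pools, without overlap. These genes were singled out after their values were seen.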
